A study of Mus musculus with 57 samples.

Results

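The genes described here are 10 genes by which the visceral endoderm, the outer cell layer of the early mouse embryo, packages and exports lipids, retinol and thyroid hormone. They are the apolipoprotein genes Apoa1, Apoa2, Apoa4, Apob, Apoe and Apom and the carrier protein genes Ttr, Afp, Rbp4 and Fabp1. They were taken by symbol, from a list drawn up with earlier results of these data known, and are 10 of the 56557 genes in the expression table. RNA had been sequenced from 57 single embryos of 3 mouse lines, to ask what early development requires of Taf5, Taf12 and Taf13, whose products belong to the complexes around the TATA-binding protein. Blastocysts were taken at embryonic day 3.5 (E3.5) in the Taf5 line (MUT n = 4, WT n = 3), the Taf12 line (MUT n = 3, HET n = 5, WT n = 5) and the Taf13 line (MUT n = 3, HET n = 4, WT n = 4). In the Taf12 line other E3.5 blastocysts were grown singly on a culture dish for 72 h with 10% fetal bovine serum, which gives attached outgrowths (MUT n = 4, HET n = 3, WT n = 4). In the Taf13 line embryos were also taken at E6.5 (MUT n = 2, HET n = 9, WT n = 4). MUT, HET and WT are the genotypes given by the labels, and no other treatment is named.

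Visceral endoderm covers the epiblast and the extraembryonic ectoderm after implantation and does for the embryo, before there is a placenta or a liver, what liver and yolk sac do later. It takes up maternal nutrients by endocytosis and secretes lipoproteins and plasma carrier proteins towards the inner cells. Its secretory genes are switched on by liver-type transcription factors such as HNF4A, FOXA2 and the GATA factors, and mouse embryos without Apob or without the lipoprotein assembly factor Mttp die in mid-gestation. TFIID, to which the products of Taf5, Taf12 and Taf13 belong, is the general factor that recognises core promoters, including those with a TATA box, and the TAF12 protein is also part of the coactivator SAGA.

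Depth ran from 4.57 M reads in the outgrowth library MUT 3 to 21.51 M at E6.5, and the authors normalized the 5 combinations of line and stage separately. Taf5 was listed at 0 FPKM in all 4 Taf5 MUT libraries and at 13.2 to 51.9 in WT. Taf12 was at 51.8 to 53.7 FPKM in outgrowths labelled MUT and 18.6 to 27 in WT, and Taf13 was at 27.1 and 34.3 in E6.5 embryos labelled MUT and 25 to 47.5 in WT. The labels do not say which part of a gene was altered, so the Taf12 and Taf13 levels do not check the genotypes, and MUT below means the embryos so labelled. Each library holds a whole embryo, so fewer endoderm cells and less RNA per endoderm cell cannot be told apart. Whether embryos of a group came from separate litters is not in the labels, so the tests use the spread between these libraries, which may be partly technical.

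Transcripts of the 10 genes were most abundant at E6.5. For 9 of the 10 genes every E6.5 library lay above every E3.5 and outgrowth library, and the exception was Apoa4, at 6.25 and 6.58 FPKM in E6.5 MUT against 7.36 in the outgrowth WT 2, on scales normalized separately. Together the 10 genes took 4550 and 5546 reads per M reads in E6.5 MUT, 4267 to 7157 in E6.5 HET and 4554 to 7406 in E6.5 WT. In outgrowths they took 3 to 18.2 reads per M in MUT, 32.8 to 61.7 in HET and 168 to 798 in WT. The 3 genotypes did not overlap in this sum. Apoe held the most outgrowth reads of the 10 genes, with 294 in MUT, 1312 in HET and 9382 in WT. Ttr was next, with 50, 234 and 3025. Of the genes tested, only Apoe was called between MUT and HET outgrowths. In blastocysts of all lines and genotypes the 10 genes together took 35.1 to 216. Apoa1 and Apoe had reads in every E3.5 library. Rbp4 and Fabp1 had no read in any E3.5 library, Ttr had 21 reads, all in the Taf13 WT 1 library, and Apoa4 had 8, all in 1 Taf13 MUT library.

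**Figure D1:**
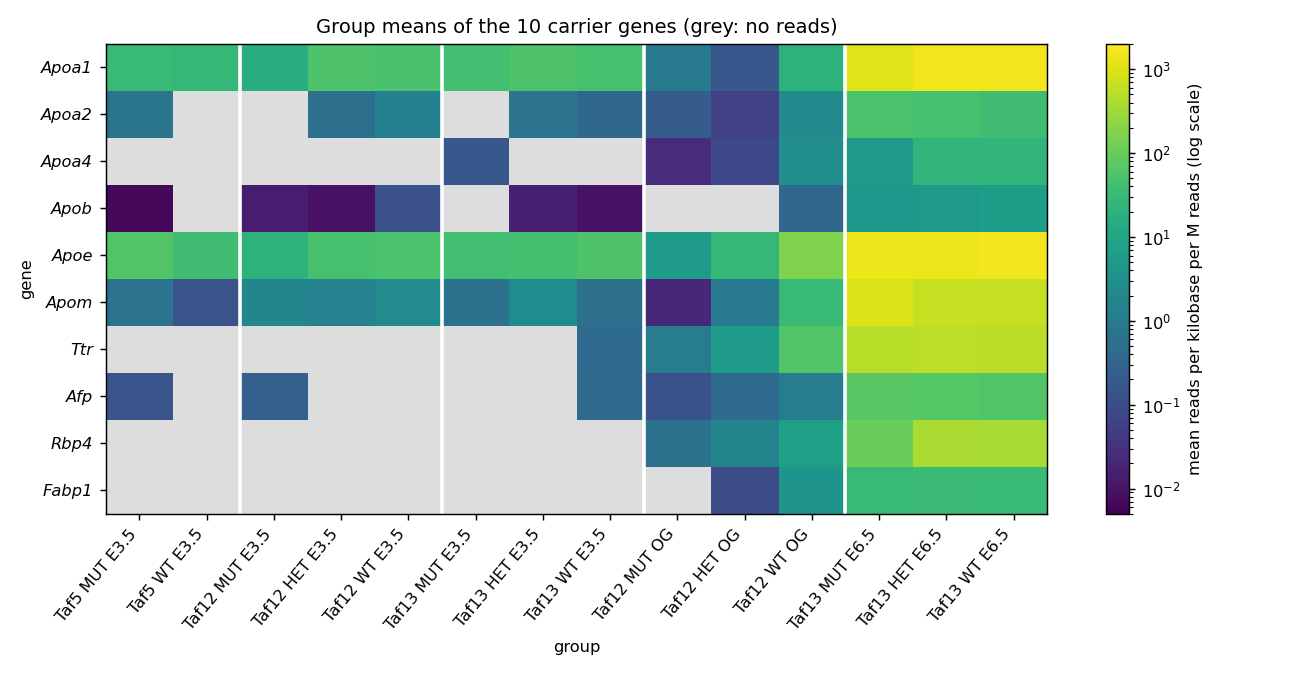
Mean reads per kilobase of transcript and per M reads of each of the 10 genes (rows) in the 14 groups (columns), on a log colour scale, with grey where no library of the group had a read. White lines part the line and stage sets, which the authors normalized separately. The E6.5 columns are the brightest for all 10 genes, and Apoa4 is lower there in MUT (6.03) than in WT (24.9). In outgrowths Apoe is darkest in MUT (5.89 in MUT, 27.5 in HET, 164 in WT).

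Per kilobase of the longest coding transcript and per M reads, Apoe stood at 1590 ± 471 and Apoa1 at 1553 ± 325 in E6.5 WT embryos (SD, n = 4), and these did not differ beyond their spread. Apom, which carries sphingosine 1-phosphate on high-density lipoprotein, followed at 639 ± 91.8, Ttr at 522 ± 76.8 and Rbp4 at 376 ± 92.5, each within the summed SDs of the next. Afp, a fetal serum protein related to albumin, was at 59 ± 9.97, Apoa2 at 38.5 ± 8.11, Fabp1 at 29.1 ± 9.93, Apoa4 at 24.9 ± 5.38 and Apob, the structural protein of the large lipoproteins, at 6.4 ± 2.64. Fabp1 lay within the summed SDs of both Apoa2 and Apoa4, which differed from each other by slightly more than theirs, and Apob stood below them. This scale uses recovered reads, because the FPKM values imply lengths that differ from the transcripts: 9392 bases for Apoa2, whose longest coding transcript has 518, and 141 bases for Rbp4, whose transcript has 1161. FPKM is therefore compared only within a gene.

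Apoa1 and Apoa4 lie near each other on chromosome 9. Apoa2 is on chromosome 1, Apob on 12, Apoe on 7, Apom on 17, Ttr on 18, Afp on 5, Rbp4 on 19 and Fabp1 on 6. Of the 10 genes, 9 had start-site windows in RefSeq (assembly GRCm38.p6), with 13 windows in all, and Ttr had none. Because TFIID recognises the TATA box, the 250 bases before each start were searched on both strands for TATAAA. It was found in 6 of the 13 windows, which belong to 6 genes (Apoa2, Apob, Apoe, Afp, Rbp4 and Fabp1), and in 12.4% of all 32851 windows. On the gene's own strand, 40 to 16 bases before the start, TATAAA was present for Rbp4 (28 to 23 bases before) and Fabp1 (30 to 25 before), and in 1.99% of all windows. AGTCCA, an HNF4 half-site, was in 4 windows (3 genes) and 11.5% of all. The forkhead site TGTTTAC was in 2 windows and 3.17% of all. No window held the GATA site AGATAA, found in 9.99% of all. In Apoe a TATAAA on each strand overlaps the other, and no other matches overlap. The 120 bases before the start are printed for 5 genes on which the results below turn: Rbp4 and Fabp1 with TATAAA at that place, Apoa4, which moved with Rbp4 at E6.5, its neighbour Apoa1, and Apom. Capitals mark a motif match, and each sequence runs 5′ to 3′ on the gene's strand and ends at the base before the start (GRCm38.p6, RefSeq).
Rbp4, chr19:38124812-38124931, minus strand: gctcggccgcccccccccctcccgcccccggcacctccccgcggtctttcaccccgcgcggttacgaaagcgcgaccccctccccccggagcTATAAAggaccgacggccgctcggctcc
Fabp1, chr6:71199759-71199878, plus strand: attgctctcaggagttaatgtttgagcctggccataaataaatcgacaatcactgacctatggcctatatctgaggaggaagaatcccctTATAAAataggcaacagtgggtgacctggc
Apoa4, chr9:46240724-46240843, plus strand: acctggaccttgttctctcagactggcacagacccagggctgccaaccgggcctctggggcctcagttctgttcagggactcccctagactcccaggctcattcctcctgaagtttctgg
Apoa1, chr9:46228510-46228629, plus strand: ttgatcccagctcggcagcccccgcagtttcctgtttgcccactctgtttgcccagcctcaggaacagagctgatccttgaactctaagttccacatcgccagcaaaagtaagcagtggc
Apom, chr17:35131802-35131921, minus strand: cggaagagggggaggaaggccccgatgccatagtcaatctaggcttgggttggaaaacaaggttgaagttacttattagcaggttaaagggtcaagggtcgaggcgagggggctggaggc
In these letters Rbp4 and Fabp1 have TATAAA, and Apoa4, Apoa1 and Apom have no match. A match of letters is not evidence of binding, and no match says only that these letters are not in this window.

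In Taf12 outgrowths, the libraries labelled MUT held few transcripts of the 10 genes. All 7 genes that passed the filter (FPKM of 1 or more in at least 3 of the 11 libraries) fell against WT, while 19.9% of all 13068 genes tested fell and 18% rose. The median log2 fold change of the 7 genes was −3.69, beside −0.05 over all genes tested. The filter could be passed through the WT libraries alone, so these counts describe 7 of the 10 genes. Fabp1 and Apoa4 reached an FPKM of 1 only in WT, so their place in the counts is not independent of being high in WT. The other 3, Apoa2, Apob and Afp, did not pass the FPKM filter, although Afp had as many reads in WT (94) as Fabp1. With WT and HET pooled as the control 3 genes were called, Apoe, Apom and Ttr, while Apoa1, Apoa4, Rbp4 and Fabp1 were not (adjusted p 0.0701 to 0.263). In 5 of the 7, Apoa4, Apoe, Apom, Ttr and Fabp1, every MUT library lay below every WT library, as was so for 18.4% of genes tested.

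Apoe, the ligand by which lipoproteins bind receptors of the LDL receptor family, was at 13.5, 23.1, 21.5 and 5.99 FPKM in MUT 1 to 4, and at 249, 880, 370 and 181 FPKM in WT 1 to 4. All MUT libraries were low, and WT 2 was high among WT. Apoe fell 26.2-fold (log2 fold change −4.51, SE 0.51, limma adjusted p = 0.000117), or 16.6-fold without WT 2.

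Apom was at 0, 0.201, 0 and 0 FPKM in MUT, against 49.5, 141, 56.5 and 18.1 in WT. That is 1 read in the 4 MUT libraries together and 1245 in WT, a ratio of 1046 in summed reads per depth with a 95% counting interval of 187 to 41358. Its log2 fold change was −5.66 (SE 0.59, limma adjusted p = 7.97e-05), and the ratio of mean FPKM, 1319, was 823 without WT 2.

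Apoa1, the main protein of high-density lipoprotein, was at 0.238, 0.218, 9.82 and 0 FPKM in MUT, against 7.23, 160, 28.5 and 10.5 in WT. MUT 3 lay within the WT range, and the other 3 MUT libraries lay far below it. MUT 3 was also the shallowest outgrowth library, and its value rests on 18 reads. Apoa1 fell 20.1-fold (log2 fold change −3.69, SE 0.97, limma adjusted p = 0.0125). The ratio of means was 339 without MUT 3 and 6 without WT 2, and the call held when any 1 library was left out (adjusted p 0.00324 to 0.0337).

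Apoa4, a lipoprotein component best known from the intestine, was at 0.0632, 0.0578, 0 and 0 FPKM in MUT, against 2.15, 7.36, 1.7 and 1.39 in WT. MUT held 2 reads in all and WT 204, a ratio of 85.7 (95% counting interval 23.4 to 713), with a log2 fold change of −1.81 (SE 0.37, limma adjusted p = 0.00343). The ratio of mean FPKM of Apoa4, 104, was 57.8 without WT 2 and 164 without MUT 1. On the log2(FPKM + 1) scale the change of such a low gene is understated. Apoa4 overlaps antisense genes, and Afp overlaps another. The strand setting of the counting is not given, but the 2 antisense partners of Apoa4 had 19 reads and 1 read in all 57 libraries, against 12271 for Apoa4.

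Apoa2, the second protein of high-density lipoprotein, had 2 reads in MUT, both in MUT 3, and 0, 12, 2 and 39 reads in WT 1 to 4. Apob had no read in any MUT library and 0, 184, 10 and 7 reads in WT, nearly all of them in WT 2, so no fold is given. For both genes WT 1 had 0 reads, so the groups overlapped, and without a filter on low values the adjusted p was 0.336 for Apoa2 and 0.287 for Apob.

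Among the carrier proteins, Ttr, which transports thyroxine and the retinol-binding protein, was at 1.58, 0.772, 0.901 and 0 FPKM in MUT, against 32.2, 69, 46.6 and 15.2 in WT. The groups did not overlap, and Ttr fell 50.2-fold (log2 fold change −4.41, SE 0.58, limma adjusted p = 0.000279).

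Fabp1, the liver-type fatty acid-binding protein of the cytosol, had no read in any MUT library and 2.87, 2.63, 2.68 and 3.9 FPKM in WT, where it varied least of the 10 genes relative to its mean. It was at least 5.73-fold lower in MUT at the floor of 3 reads (log2 fold change −2.00, SE 0.21, limma adjusted p = 7.91e-05).

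Rbp4, the plasma carrier of retinol, was at 0, 13.3, 7.94 and 0 FPKM in MUT, against 7.66, 53.2, 23.1 and 167 in WT. MUT 2 and MUT 3 lay within the WT range. Rbp4 fell 11.8-fold (log2 fold change −3.46, SE 1.13, limma adjusted p = 0.033). This call was lost without any of WT 2, WT 4, MUT 1 or MUT 4 (adjusted p up to 0.0895), with no filter on low values (0.0873) and with voom on reads (0.0602). The ratio of means was 5.26 without WT 4 and 23.7 without MUT 2.

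Afp had 2, 10, 0 and 0 reads in MUT and 7, 37, 25 and 25 in WT. The means differed 8.14-fold, or 34-fold without MUT 2, and the groups overlapped. Without a filter on low values its adjusted p was 0.0873, and with voom on reads its log2 fold change was −3.30 (adjusted p = 0.0636).

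**Figure D2:**
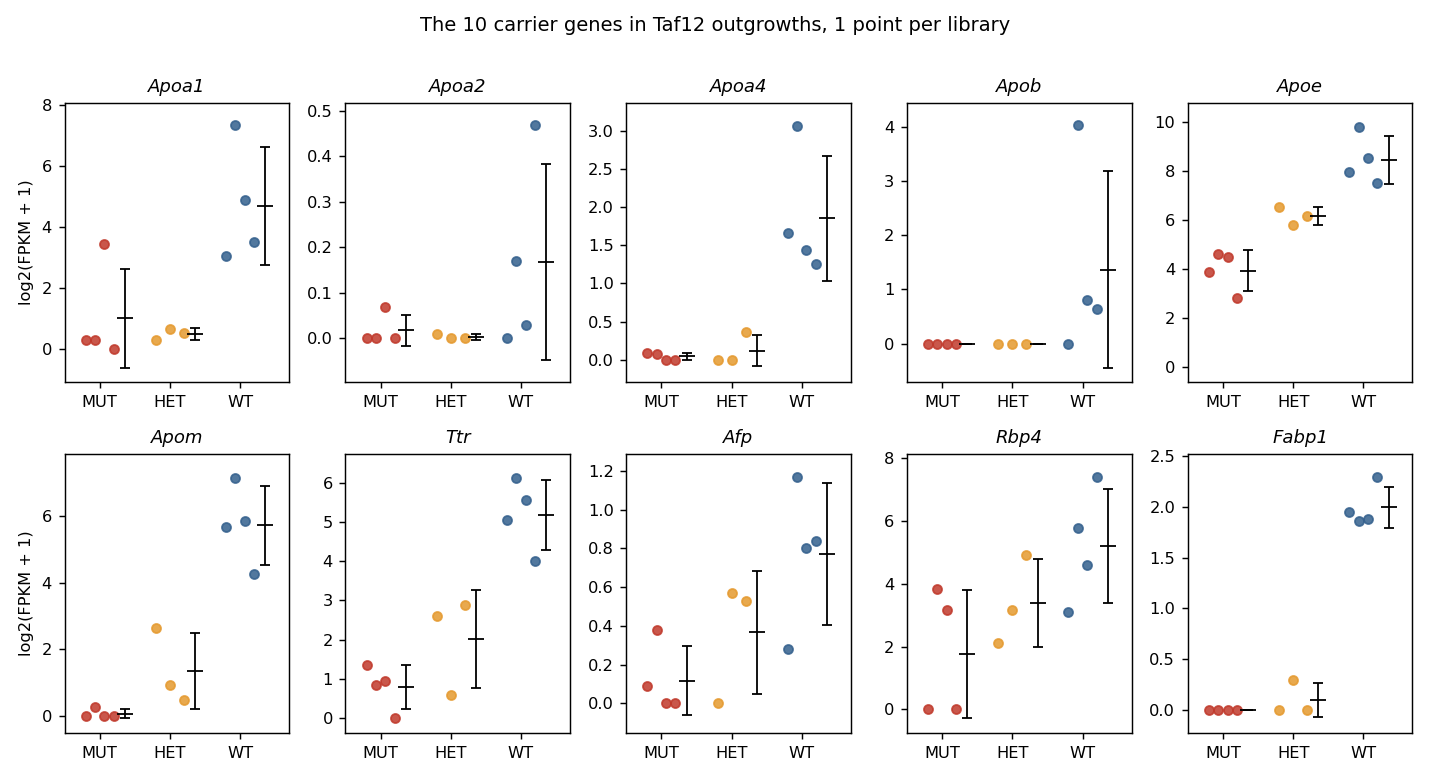
Values of the 10 genes as log2(FPKM + 1) in Taf12 outgrowths, 1 point per library (MUT n = 4, HET n = 3, WT n = 4), with the mean and SD of each genotype as a bar beside the points and each panel on its own scale. Fabp1 and Apom are at or near 0 in MUT, Apoe is lowest in MUT and intermediate in HET, and for Apoa1 and Rbp4 some MUT points reach the WT range.

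HET outgrowths were also low for these genes, but limma called 1 of the 7, and 0.0153% of all genes, as lower than WT. At an unadjusted p under 0.05, 6 of the 7 differed, as did 571 of 13068 genes. Every HET library lay below every WT library for 6 of the 7 genes, all but Rbp4, against 4.09% of genes tested. Here too the filter could be passed through the WT libraries alone. Fabp1, the gene called, and Apoa4 reached an FPKM of 1 only in WT, so these counts are not independent of the filter. Apoa2, Apob and Afp, which did not pass the filter, overlapped between HET and WT. The median log2 fold change of the 7 genes was −2.29 in HET, beside −0.01 over all genes. HET and MUT were set against the same WT libraries, so these 2 comparisons share their controls.

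Fabp1 was at 0, 0.221 and 0 FPKM in HET 1 to 3, against 2.63 to 3.9 in WT, and was the gene called (log2 fold change −1.90, SE 0.23, limma adjusted p = 0.0344). The HET group held 2 reads and WT 94, a ratio of 38 (95% counting interval 10.2 to 318). The call was lost when any 1 of the 11 outgrowth libraries was left out (adjusted p 0.0522 to 0.173), with a pseudocount of 0.1, with voom and with the replicate block (adjusted p up to 0.691).

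Apoa1 was at 0.227, 0.583 and 0.421 FPKM in HET, all far below the WT values of 7.23 to 160 (log2 fold change −4.21, adjusted p = 0.55). Apom was at 5.22, 0.896 and 0.388 in HET and 18.1 to 141 in WT (−4.38, adjusted p = 0.0893). It was called in 1 of 11 runs with 1 library left out, that without HET 1 (0.0378, others up to 0.292). None of 5 other settings called Apom (adjusted p up to 0.861). Ttr was at 5.03, 0.505 and 6.41 in HET and 15.2 to 69 in WT (−3.17, adjusted p = 0.281). In these 3 genes the HET range ended below the lowest WT library, but no difference passed the test.

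Apoe was at 92, 54 and 70 FPKM in HET and 181 to 880 in WT (−2.29, adjusted p = 0.472), and Apoa4 at 0, 0 and 0.279 in HET and 1.39 to 7.36 in WT (−1.74, adjusted p = 0.43). Rbp4 overlapped, at 3.3, 7.92 and 28.8 in HET and 7.66 to 167 in WT (−1.83, adjusted p = 1). Apob had no read in HET, Apoa2 had 1, and Afp had 0, 18 and 15.

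Set directly against HET, MUT outgrowths were lower in Apoe (5.99 to 23.1 FPKM in MUT, 54 to 92 in HET), which fell 4.49-fold (log2 fold change −2.22, SE 0.55, limma adjusted p = 0.00978), and 18.4% of all genes fell in that comparison. With voom this call was lost (0.0942). Apom did not overlap between MUT and HET either, as for 21.6% of genes, but was not called (−1.28, adjusted p = 0.145). For Ttr the difference was −1.24 (adjusted p = 0.145), for Rbp4 −1.64 (adjusted p = 0.324) and for Apoa1 0.52 (adjusted p = 0.733).

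**Figure D3:**
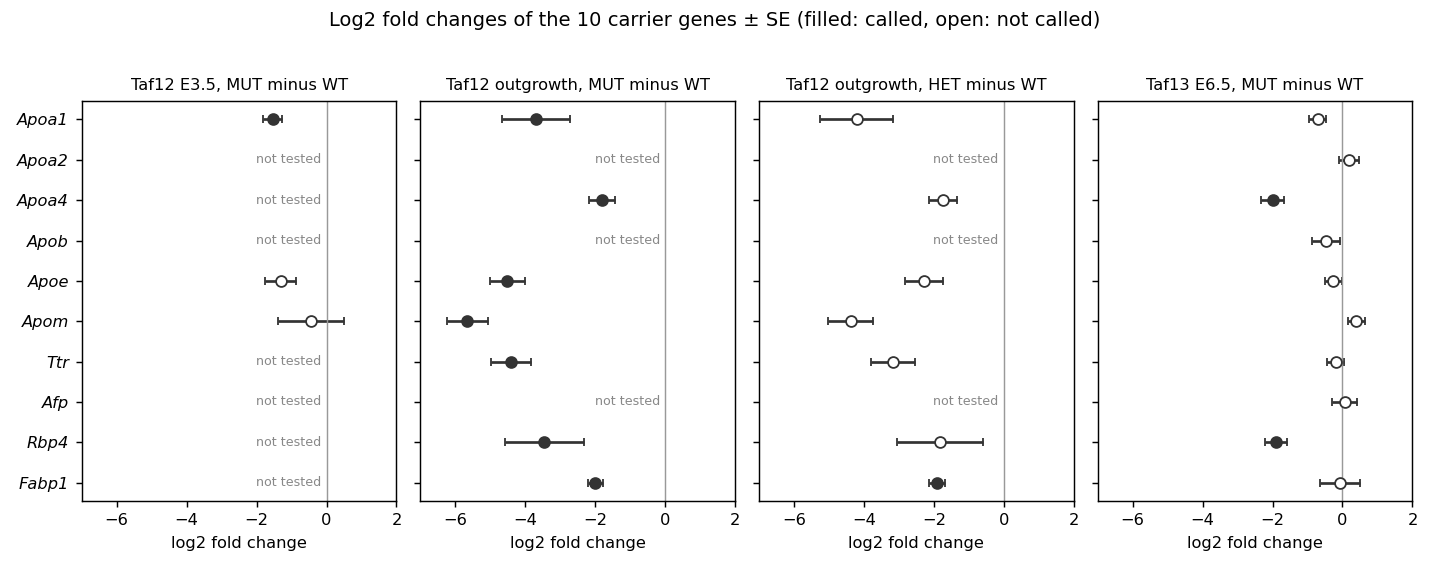
Log2 fold changes with SE of the 10 genes in 4 comparisons, each against WT of the same line and stage, filled where the adjusted p was under 0.05. In Taf12 outgrowths all 7 tested genes are filled for MUT and only Fabp1 for HET, and at Taf13 E6.5 only Apoa4 (−2.00) and Rbp4 (−1.90) are filled.

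Other genes of lipoprotein assembly moved both ways in MUT outgrowths, where 19.9% of all genes tested fell and 18% rose. Of 8 such genes tested, 4 fell: Pla2g12b (log2 fold change −4.14, limma adjusted p = 0.0108), Soat2, which makes cholesteryl esters (−3.13, 0.000153), Mttp, which loads lipid onto the Apob protein (−1.51, 0.00858), and Apoc1 (−1.40, 0.0054). The 3 that rose were Abca1, a cholesterol exporter (2.03, 0.0211), Dgat2, which makes triglyceride (1.33, 0.000281), and Sar1b, a factor of vesicle transport (0.52, 0.00402). Of 6 other carrier protein genes tested 3 rose and 2 fell. Trf, the iron carrier transferrin, fell (−2.69, 0.00416). Fabp3 (3.49, 0.00112), Gc, the vitamin D carrier (2.67, 0.00853), and Fabp5 (0.90, 0.00853) rose. Fabp3, a fatty acid-binding protein of muscle type, was at 1479 ± 958 FPKM in MUT and 134 ± 92.1 in WT (SD, n = 4 each). Relative to these, the median log2 fold change was −0.90 over the 8 lipoprotein genes and 0.22 over the 6 carrier genes.

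The receptors of the uptake side and the endoderm regulators were lower or not called, while 19.9% of all genes tested fell. Of 10 receptor genes tested 3 fell: Amn (−4.31, limma adjusted p = 0.000627) and Cubn (−2.57, 0.00358), which together form the receptor for vitamin B12 and apolipoprotein A1, and Lrp1 (−2.03, 0.0321). Of 9 endoderm transcription factors tested 4 fell, among them Sox7 (−2.25, 0.00669), Sox17 (−2.05, 0.00917) and Foxa2 (−1.74, 0.0096). Gata6 had −3.55 (0.0637) and Gata4 −1.52 (0.107). Hnf4a did not pass the FPKM filter, with 14 reads in MUT and 62 in WT over 4 libraries each. No gene of these lists was called by limma in HET against WT, where 4 of 13068 genes were called in all.

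Markers of other cell layers changed beside them, where 19.9% of all genes tested fell and 18% rose. Of 5 other visceral endoderm markers tested 4 fell (Cited1, Dkk1, Spink1 and Rhox5, median −3.83 over the 5) and of 10 parietal endoderm markers 8 fell, with summed reads per M of 152 to 415 in MUT, 781 to 1404 in HET and 1008 to 1790 in WT. The summed reads of the other visceral endoderm markers were 72.6 to 154 in MUT, 542 to 807 in HET and 382 to 1110 in WT. In HET against WT the median log2 fold change was −1.48 over the other visceral endoderm markers and −1.05 over the endoderm transcription factors tested, with no gene called, beside −2.29 over the 7 genes. Of 7 epiblast markers 3 fell. Of 13 trophoblast markers 5 rose, led by Krt8, Cdx2, Krt18 and Plac1, and Prl3d1 fell, with sums of 42396 to 58187 in MUT and 34227 to 47303 in WT. Of 9 decidual markers 7 had no read in MUT, and the list's sum, 175 to 241 in MUT and 11.9 to 42.5 in WT, was nearly all Cryab, a heat-shock protein (2.97, adjusted p = 0.000112). Blood markers stood at 0 to 1.63 reads per M in MUT and 0 in WT. Mitochondrially encoded transcripts took 1.45 to 2.16% of reads in MUT and 0.95 to 1.33% in WT. The part of these shifts in the fall of the 10 genes was not tested.

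Blastocysts gave few values for these genes. In Taf12 MUT blastocysts 3 of the 10 genes were tested and Apoa1 fell, beside 0.941% of all genes. Apoa1 was at 31.4, 58.8 and 36.3 FPKM in MUT 1 to 3, against 177, 122, 98.9, 86.8 and 136 in WT 1 to 5. Every MUT library was below every WT library, as for 5.19% of genes tested, and HET, at 96.7 to 171 FPKM, lay within the WT range. Apoa1 fell 2.94-fold (log2 fold change −1.54, SE 0.28, limma adjusted p = 0.0201). The call was lost without WT 2, MUT 1 or MUT 3 (adjusted p up to 0.0708), with no filter, with voom on reads and with the replicate number as a block (adjusted p up to 0.0873). Apoe had −1.31 (adjusted p = 0.179), at 36.9 to 84.9 FPKM in MUT and 69.1 to 254 in WT. None of the tested genes was called, by limma or by voom, in Taf12 HET or Taf13 HET blastocysts (0% of all genes lower in each) or in Taf5 MUT and Taf13 MUT blastocysts, and none had an unadjusted p under 0.05 there. Over all genes an unadjusted p under 0.05 was found for 447 in Taf12 HET and 519 in Taf13 HET, and voom called 0 in each. In Taf5 MUT, where 0.0738% of genes fell, Apoe was at 125 to 221 FPKM, against 54.8 to 141 in WT (log2 fold change 0.75, adjusted p = 0.649), and in Taf13 MUT, where 0.109% fell, at 75.7 to 121, against 101 to 241 in WT (−0.47, adjusted p = 0.71).

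The fall in Taf12 MUT was larger in outgrowths than in blastocysts for Apoe and Apom by a test of the difference itself. That test called 5 of 7 genes, beside 5.82% of all genes. The others called, Ttr, Fabp1 and Apoa4, had no blastocyst reads that could fall, so the count is not one of stage differences. The differences of log2 fold changes, outgrowth minus E3.5, were −5.23 for Apom (adjusted p = 0.00609), −4.41 for Ttr (8.58e-05), −3.21 for Apoe (0.00558), −2.00 for Fabp1 (1.25e-06) and −1.81 for Apoa4 (0.0031). Ttr, Fabp1, Apoa4 and Rbp4 had no reads in Taf12 blastocysts of any genotype, so their differences restate the outgrowth values. Of the 7 genes only Apoe, Apom and Apoa1 had reads at both stages. Apoa1, with −2.15 (adjusted p = 0.197), and Rbp4, with −3.46 (0.0594), were not called.

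At E6.5 in the Taf13 line the 10 genes were present at overlapping summed levels in all genotypes, and only Apoa4 and Rbp4 fell in MUT. All 10 genes were tested, 2 fell and 0 rose, beside 6.4% of 14417 genes that fell and 6.64% that rose. The median log2 fold change was −0.23, beside 0.03 over all genes. MUT has 2 embryos, so each MUT value rests on a pair of libraries.

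Apoa4 was at 6.58 and 6.25 FPKM in MUT, against 29.3, 20, 36.7 and 31 in WT 1 to 4 and 16.5 to 48 (median 28.3) in HET. Both MUT libraries were below all 13 others. Apoa4 fell 4.56-fold (log2 fold change −2.00, SE 0.32, limma adjusted p = 0.00116).

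Rbp4 was at 1006 and 655 FPKM in MUT, against 2783, 2094, 4247 and 3378 in WT and 2486 to 5859 (median 3080) in HET. Again both MUT libraries were below all others. Rbp4 fell 3.76-fold (log2 fold change −1.90, SE 0.32, limma adjusted p = 0.0018). Both calls held when any 1 of the 15 libraries was left out and under all 6 other settings tried (adjusted p up to 0.0405).

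Apoa1 was the third gene whose groups did not overlap, at 2642 and 2116 FPKM in MUT and 3070 to 4703 in WT, as was so for 17.7% of genes tested. It was not called (log2 fold change −0.71, SE 0.25, limma adjusted p = 0.0717). Of 6 other settings 2 called Apoa1, voom (0.0462) and WT and HET pooled as the control (0.0236). The rest did not (adjusted p up to 0.212). With 1 library left out it was called only without HET 8 (0.0445). Both MUT libraries were also below all 9 HET libraries, which ran from 2740 to 5344.

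The other 7 genes overlapped between MUT and WT. Apom was at 2285 and 1601 FPKM in MUT and 1236 to 1964 in WT (log2 fold change 0.40, SE 0.25, adjusted p = 0.312). Ttr was at 385 and 245 in MUT and 301 to 412 in WT (−0.20, SE 0.25, 0.623), and Apoe at 3606 and 3269 in MUT and 3236 to 5623 in WT (−0.26, SE 0.25, 0.537). Apob had −0.47 (SE 0.39, 0.449), Apoa2 0.19 (SE 0.28, 0.687), Afp 0.06 (SE 0.35, 0.935) and Fabp1 −0.07 (SE 0.57, 0.95). None of these passed the test. Afp differed most between the MUT embryos, at 27 in MUT 1 and 67.1 in MUT 2, on both sides of the WT range of 35.9 to 48.7.

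In HET embryos at E6.5 none of the 10 genes was called, nor was any other (0%, by limma), and none of the 10 had an unadjusted p under 0.05. Over all genes 174 had one, and voom called 1. The log2 fold changes lay between −0.30 (Apob) and 0.20 (Apoa2). Against the effect in Taf13 blastocysts, Apoa4 was lower by a difference of −2.22 (adjusted p = 0.00223) and Rbp4 by −1.90 (adjusted p = 0.00339), as were 2.16% of all genes. Neither gene had a read in Taf13 WT blastocysts, so no fall could be seen there and these calls rest mainly on the E6.5 values.

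**Figure D4:**
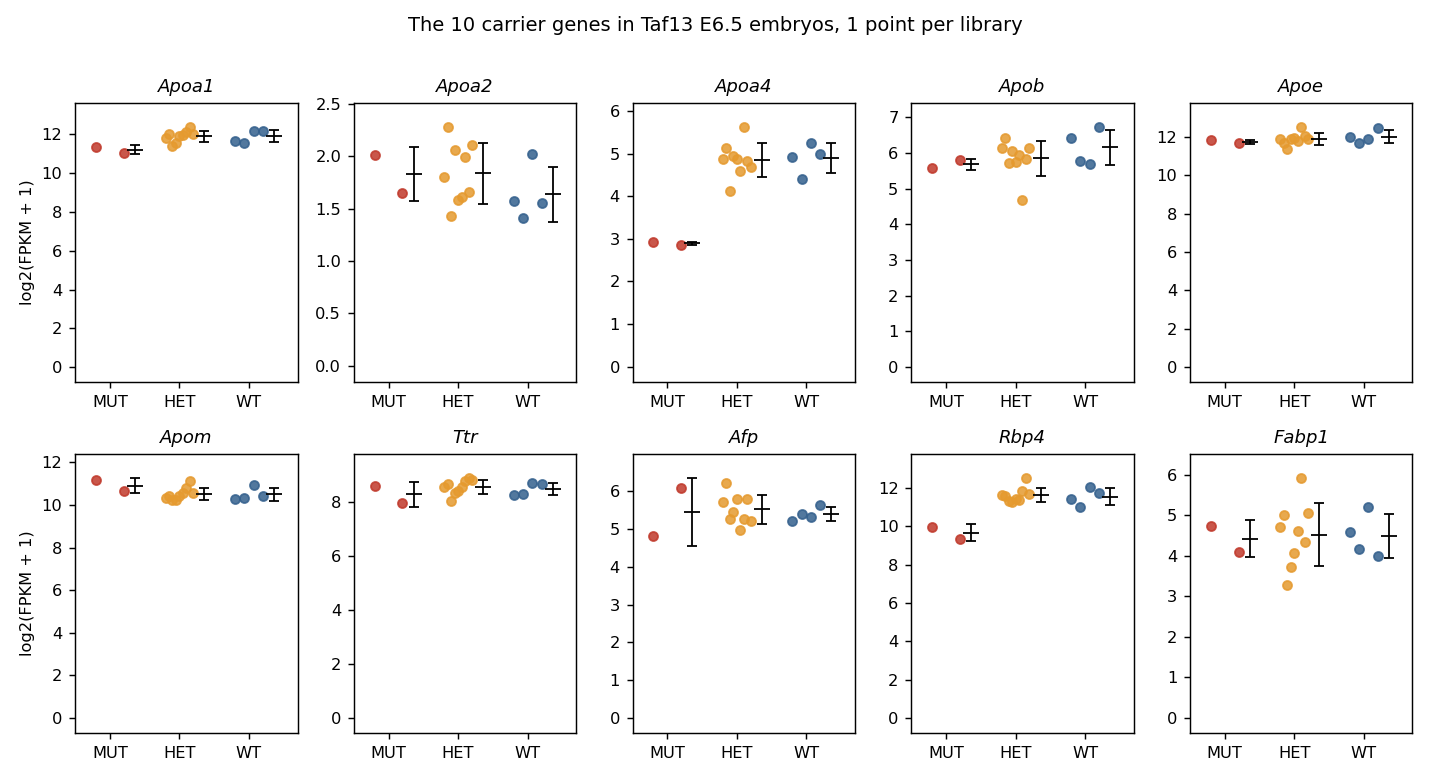
Values of the 10 genes as log2(FPKM + 1) in Taf13 E6.5 embryos, 1 point per library (MUT n = 2, HET n = 9, WT n = 4), with the mean and SD of each genotype as a bar beside the points. Both MUT points stand below all others for Apoa4 and Rbp4, and Afp in MUT lies at 27 and 67.1 FPKM, on either side of the WT points.

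The composition of the E6.5 MUT libraries differed from WT in several marker lists. Of 11 epiblast markers tested 9 fell (median log2 fold change −4.16), and of 10 parietal endoderm markers 7 rose. Of 8 other visceral endoderm markers, Cited1 (1.27, limma adjusted p = 0.00582) and S100g (1.68, 0.00615) rose, while Cer1 (−3.67, 5.99e-05) and Lhx1 (−2.33, 0.00608), which mark its anterior part, fell. Of 15 endoderm transcription factors tested 2 rose, Foxa2 (1.66, 0.0042) and Sox17 (1.28, 0.0133). Of 14 other lipoprotein genes 3 rose, Soat2 (1.25, 0.0018), Abca1 (1.76, 0.00454) and Dgat2 (1.15, 0.0289). Of 9 receptor genes 2 rose, Amn (0.81, 0.0249) and Scarb1, a receptor for high-density lipoprotein (1.18, 0.00924). No gene of the transcription factor, other lipoprotein and receptor lists was called lower, and 6.64% of all genes rose. Of 13 other carrier protein genes 1 rose and 1 fell, with a median log2 fold change of −0.22. Hnf4a had 0.76 (0.124) and Mttp 1.06 (0.0524). Decidual markers, from the surrounding maternal tissue, stood at 834 and 1677 reads per M in MUT, 9.55 to 669 in HET and 45 to 1231 in WT, where WT 3 had the 1231. Blood markers stood at 190 and 385 in MUT and 3.3 to 135 in WT, and all 9 genes of each list had reads in MUT. Mitochondrially encoded transcripts took 1.12 and 0.38% of reads in MUT and 0.11 to 0.53% in WT. The part of these shifts in the lower Apoa4 and Rbp4 was not tested. Rescaling the libraries to their total reads shifted all genes by 0.14 between MUT and WT and kept both calls.

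**Figure D5:**
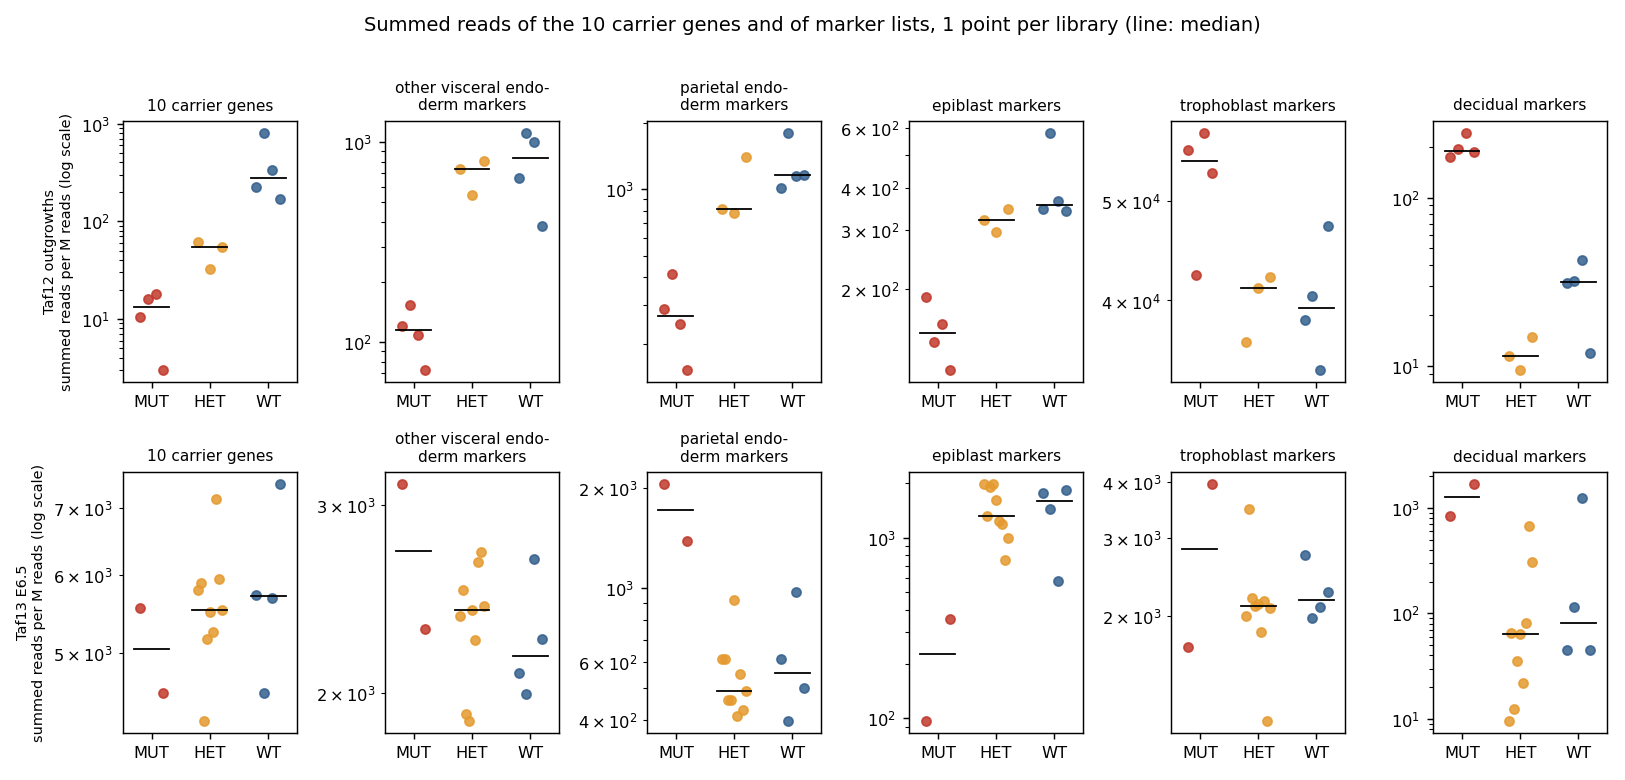
Reads per M reads summed over the 10 genes and over 5 marker lists, on a log axis, 1 point per library with the median as a line, in Taf12 outgrowths (top) and Taf13 E6.5 embryos (bottom), with MUT, HET and WT from left to right. In outgrowths the sum of the 10 genes parts the genotypes (3 to 18.2 in MUT, 32.8 to 61.7 in HET, 168 to 798 in WT). Apoe is the largest part of that sum. At E6.5 the sum of the 10 genes overlaps, and the epiblast and parietal endoderm lists part MUT from WT.

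Among the WT outgrowths the 10 genes did not share 1 order. WT 2 was the highest for 7 of them and WT 4 for 3 (Apoa2, Rbp4 and Fabp1), while WT 4 was the lowest for 4 and WT 2 for 1 (Fabp1). Among the genes whose level over all 57 libraries was most like the mean of the 10, each centred within its line and stage, were Spink1 (Pearson r = 0.84), Igsf23 (0.81), Soat2 (0.79), Clic6 (0.74), Trf (0.73), Car2 (0.73), Msl3l2 (0.72), Ifi27l2b (0.72) and Tfec (0.72). These are descriptions over libraries that share lines, stages and the spread of depth. Within outgrowths Soat2 had r = 0.98 (n = 11), and within E6.5 embryos −0.37 (n = 15).

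The authors' deposited table compares mutants with WT and HET together in the Taf12 and Taf13 lines. For Taf12 blastocysts the authors' deposited table has Apoa1 (−1.61, adjusted p = 5.14e-07) and Apoe (−1.27, 0.028) lower. In outgrowths the authors' deposited table has 6 of the 10 genes lower at an adjusted p under 0.05, Apoa4, Apoe, Apom, Ttr, Rbp4 and Fabp1, and Apoa1 at −3.56 (adjusted p = 0.091). At E6.5 the authors' deposited table has Apoa4 (−2.18, adjusted p = 1.08e-11), Rbp4 (−1.96, 3.39e-09) and also Apoa1 (−0.72, 0.00809) lower.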

How the data were processed

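RNA of 57 single embryos was sequenced as paired 76-base reads from a low-input kit, per the labels' protocols. The submitters' processing notes name Trimmomatic 0.39, FastQC 0.11.9, STAR 2.7.6a, R 4.2.1, DESeq2 1.36.0 and the build GRCm39. Which program counted reads, and with what strand setting, is not stated in these sources. The authors deposited FPKM per gene, normalized separately in each of 5 line and stage sets. The authors also deposited comparisons with score columns (a mean normalized count and a test statistic), a log2 fold change with its SE, and p-values. FPKM steps gave whole reads back for 99.94% of values up to 500 reads (within 0.05 reads, lowest library 99.79%), and depth and reads per kilobase come from these.

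log2(FPKM + 1) was fitted per set with limma 3.58.1 (R 4.3.3; trend and robust options), two-sided, with Benjamini-Hochberg adjustment over all genes tested. A gene was tested where the number of libraries at or above an FPKM of 1 reached the size of the smallest genotype group, and an adjusted p under 0.05 was called. Stage differences were interaction terms. The steps were tested on simulated data. Fold differences are ratios of mean FPKM. With no read in a group a floor of 3 reads per library was used, and with 1 to 3 reads the ratio of summed reads with an exact 95% interval, which covers counting error only. Alternatives were a pseudocount of 0.1, no filter, scaling to total reads, voom on the recovered reads, WT and HET pooled, a replicate block, and each library left out.

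The 10 genes and the marker lists were chosen with earlier results of these data known. Named list genes are up to 4 per direction called in MUT outgrowths, with Hnf4a, Gata4, Gata6, Foxa2, Sox17 and Mttp always given for that comparison. They are not all given at E6.5 or in blastocysts. List genes named at E6.5 were chosen after their values were seen. Genes of like pattern are the 10 with the highest Pearson r, leaving out unnamed gene models. A few genes and a promoter motif that these rules select are not reported here.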

Additional observations from a re-analysis of the deposited data

Results flagged for a closer look

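In 12 of 66 pairs of gene and group with 4 to 10 libraries, 1 library stood far from the others of its group. Chance alone flags about 1 in 20 such groups, and several of these groups are at or near 0 FPKM otherwise. In Taf12 MUT outgrowths Apoa1 was at 9.82 FPKM and Apoa2 at 0.0477 in MUT 3, the shallowest outgrowth library, and Apom was at 0.201 (1 read) in MUT 2. In Taf5 MUT blastocysts Apoa2 was at 0.167 in MUT 2, Apob at 0.303 and Apom at 6.27 in MUT 3, and Afp at 0.383 in MUT 4. In Taf12 HET blastocysts Apoa2 was at 0.129 in HET 3 and Apob at 0.454 in HET 5. In the Taf13 line Ttr was at 1.22 in the blastocyst WT 1. At E6.5 Rbp4 was highest in HET 8, at 5859 FPKM, and Apob lowest in HET 7, at 24.8 FPKM.

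An interaction term in limma, for the effect of the MUT label between stages, was called for 7 combinations of gene and line. In the Taf12 line, outgrowth minus E3.5, the differences of log2 fold changes were −5.23 for Apom, −4.41 for Ttr, −3.21 for Apoe, −2.00 for Fabp1 and −1.81 for Apoa4, and each call held when any 1 library was left out. In the Taf13 line, E6.5 minus E3.5, they were −2.22 for Apoa4 and −1.90 for Rbp4, and both calls also held when any 1 library was left out. Except for Apoe and Apom, these genes had no reads at E3.5 in the line's WT libraries. No fall could be seen there, so their calls repeat those of the later stage. Apoa4 also had 8 reads in 1 Taf13 MUT blastocyst library, which enter its Taf13 difference.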

How the results depend on the processing

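Directions of called fold changes did not reverse under any alternative run. In Taf12 MUT blastocysts the 1 gene called, Apoa1, was not called (count 0) with no filter or with voom, and 0 to 1 genes were called with 1 library left out. In outgrowths, MUT against WT gave 3 called genes, in place of 7, with WT and HET pooled as the control. HET against WT gave 0, in place of 1, with a pseudocount of 0.1 and with voom, and 0 to 1 with 1 library left out. MUT against HET gave 2 with a pseudocount of 0.1, 0 with voom and 1 to 2 with 1 library left out, in place of 1. Uncalled values changed sign. For MUT against HET, Apoa1 (0.52) was −0.05 with voom and −0.29 to 0.85 with 1 library left out, Apoa4 (−0.08) was 0.05 with voom and −0.14 to 0.04, and Fabp1 (−0.10) was −0.14 to 0.00. At E6.5 Ttr (−0.20) was −0.53 to 0.12 with 1 library left out, Afp (0.06) was −0.04 with pooled controls and −0.59 to 0.70, and Fabp1 (−0.07) was 0.07 when scaled to total reads and −0.39 to 0.25. Where 1 sample of MUT was left at E6.5, it is assumed to vary like the other groups. The causes were not tested.

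Over all genes, calls in Taf5 MUT were 12, with 4 without a filter and 0 with voom, and in Taf12 MUT blastocysts 184, with 67 without a filter and 441 with pooled controls. In Taf13 MUT blastocysts they were 16, with 8 without a filter, 1 with voom and 30 with pooled controls, and in Taf13 MUT at E6.5 1880, with 3348 pooled. In outgrowth HET they were 4, with 0 by voom, and in E6.5 HET 0, with 2 without a filter and 1 by voom.

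Most same-numbered libraries did not deviate together, though some pairs in Taf12 blastocysts and at E6.5 did to a degree. The correlations of their deviations ran from −0.12 to 0.25 in Taf12 blastocysts (3 of 11 pairs over 0.1), −0.08 to 0.04 in outgrowths (0 of 10), −0.44 to 0.38 at E6.5 (2 of 8), −0.04 to 0.01 in Taf5 and −0.06 to 0.01 in Taf13 blastocysts. As these values were mixed, the numbers are not taken as pairs in the main fits, and a replicate block was an alternative. With the replicate block, 0 of the 10 genes were called in Taf12 MUT blastocysts and 0 in outgrowth HET, and the uncalled Apoa4 (MUT against HET, 0.03) and Afp (E6.5, −0.05) changed sign. Over all genes the block gave 0 calls in Taf5 MUT, 48 in Taf12 MUT blastocysts, 0 in outgrowth HET, 0 in Taf13 MUT blastocysts, 584 in E6.5 MUT, and 322 in place of 741 for the Taf13 stage difference. In outgrowths Apoa2 had 2 reads in MUT, 1 in HET and 53 in WT, and values on so few reads have wide counting error.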
